A study of Mus musculus with 15 samples.

Results

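The 10 genes described here encode proteins of the microtubule organising centres and spindle poles of the mouse oocyte, which divides without centrioles. They are Pcnt, Cep192, Cdk5rap2, Nedd1, Tubg1, Tacc3, Ckap5, Numa1, Tpx2 and Cltc. They were chosen by symbol for this role, and all 10 were found among the 28785 gene IDs with a count in the files. Transcriptomes of single oocytes had been measured with MATQ-seq, a method that amplifies total RNA from a single cell. The later stage is MII, the ovulated egg, which waits in the second meiotic metaphase. Its 6 oocytes came from female mice aged 6 to 8 weeks. These had received 7 IU of PMSG, a gonadotropin from mare serum that stimulates follicles, and, about 48 h afterwards, 7 IU of human chorionic gonadotropin (hCG). Oviducts were opened 20 h after hCG, and hyaluronidase at 300 IU/mL removed the cumulus cells. The earlier stage is GV, the fully grown oocyte with an intact germinal vesicle. Its 9 oocytes came from females of the same age 44 h after 7 IU of PMSG alone. The labels name no mouse, strain or genotype. Each stage therefore counted as 1 sample of many cells. No test could be made, and differences are described by their size beside the spread between oocytes.

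Total counts were 808641 to 2348281 per MII oocyte and 3687610 to 7103063 per GV oocyte. An unnamed feature, ENSMUSG00000119584, held between 15.7% and 61.2% of all counts in MII oocytes, most in MII5 and MII6. It held 3.43% to 11.2% in GV7 to GV9 and had no count in GV1 to GV6. The files of GV7 to GV9 also carry another kind of column header than those of GV1 to GV6, and all MII files carry another again, so the stage and the kind of file cannot be told apart. All 10 oocyte markers examined, such as Zp3 and Gdf9, had counts in both stages. Cumulus and granulosa markers summed to 14 to 80 CPM (counts divided by the oocyte's total, times 1e6) in MII and 101 to 336 CPM in GV oocytes. Of these 13 markers 7 had counts in MII oocytes and 12 in GV oocytes. Amh, Inha, Inhba, Foxl2, Hsd17b1 and Ptx3 were at 0 in all MII oocytes, and Tnfaip6 in all GV oocytes. The MII libraries were the shallower ones, by the total counts given above.

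Most somatic cells build spindle poles around centrosomes, each with a pair of centrioles in a coat of pericentriolar material. Mouse oocytes lose their centrioles and use many small organising centres made of pericentriolar proteins, which are broken up and then gathered into poles during meiosis. Fully grown oocytes are largely silent in transcription, so the proteins of the meiotic spindle are made from stored mRNAs.

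The transcripts of these genes were present at both stages and differed widely in level. Compared per length, as CPM per kilobase of merged exons (RPKM), Tacc3 had the highest level in GV oocytes (139 RPKM in the summed counts), followed by Tubg1 (89.6 RPKM) and Tpx2 (87.8 RPKM). Tacc3 exceeded Tubg1 in 8 of 9 GV oocytes, whereas Tubg1 exceeded Tpx2 in 4 of 9, so that this pair did not differ beyond the spread. Pcnt (44.1 RPKM), Cltc (28.5), Numa1 (23.7) and Ckap5 (21.5) formed a middle range. Within it Pcnt exceeded Cltc in 5 of 9 oocytes and Numa1 exceeded Ckap5 in 5 of 9. Nedd1 (9.98 RPKM), Cdk5rap2 (7.55) and Cep192 (3.31) had the lowest levels, in that order in 7 of 9 oocytes for the first pair and in 8 of 9 for the second. In MII oocytes Tubg1 (61.8 RPKM), Tacc3 (50.6) and Tpx2 (39.5) had the highest levels in the summed counts. Their medians over oocytes were 52.6 RPKM for Tubg1, 54.1 for Tacc3 and 51.6 for Tpx2. Tubg1 was above Tacc3 and above Tpx2 in 3 of 6 oocytes each, highest in MII5 (114 RPKM) and MII6 (69.5), so no order between the 3 genes held beyond the spread, although Tacc3 was above Tpx2 in 5 of 6. Cep192 was again lowest, at 0.541 RPKM against 3.02 for Cdk5rap2, in 6 of 6 oocytes. Lengths came from an annotation of an older genome build. With the longest transcript as length Numa1 and Ckap5 exchanged places in both stages, and the other 8 kept theirs.

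**Figure D1:**
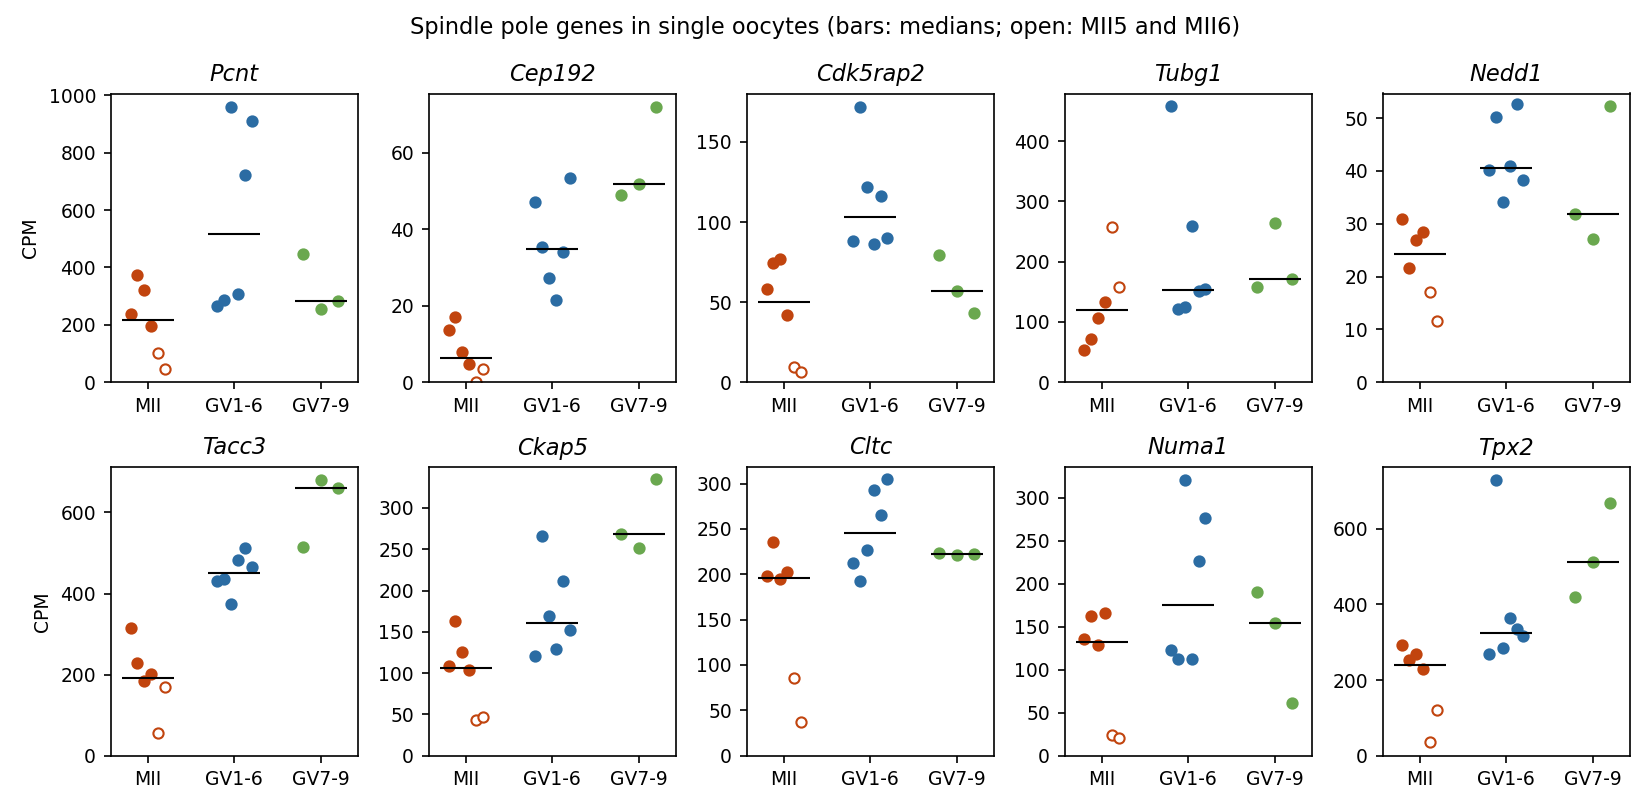
CPM (vertical axes from 0) of the 10 genes in every oocyte, by MII, GV1 to GV6 and GV7 to GV9. Points are oocytes, open points are MII5 and MII6, and bars are medians; Cep192 and Tacc3 are lower in all 6 MII oocytes than in any GV oocyte on this scale, and Tubg1 is highest among MII oocytes in MII5.

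In their change between the stages the 10 genes as a group lay close to the typical transcript, and Cep192 lay furthest below it. All 10 had a lower share of total counts in MII, with a median log2 ratio MII/GV of -1.14. The unnamed feature takes a share of every total on this scale, and the median of the 10090 measured genes (at least 5 CPM in the higher stage) stood at -0.98. Ratios below are therefore log2 MII/GV relative to that median gene, and ± gives the spread: the root of the summed squared SDs of the relative levels of the 6 MII and the 9 GV oocytes. On it the median of the 10 genes was -0.16 ± 0.61, against 0 by definition for all measured genes, with a range of -1.62 to 0.45. Cep192 was the single member at least 2-fold lower, 1 of 10 where 15.5% of all measured genes were this far below. None was at least 2-fold higher, against 12.1% of measured genes. In levels relative to the median gene, no member was lower or higher in every MII oocyte than in every GV oocyte, while 0.684% of measured genes were lower and 1.61% higher in that way. In CPM 2 members, Cep192 and Tacc3, were lower in every MII oocyte and none was higher, beside 4.65% and 0.0892% of measured genes. The members' median was below 0 under each scaling tried, at -0.47 where the feature was removed from the totals, and was 0.11 where medians of CPM over oocytes replaced the summed counts.

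**Figure D2:**
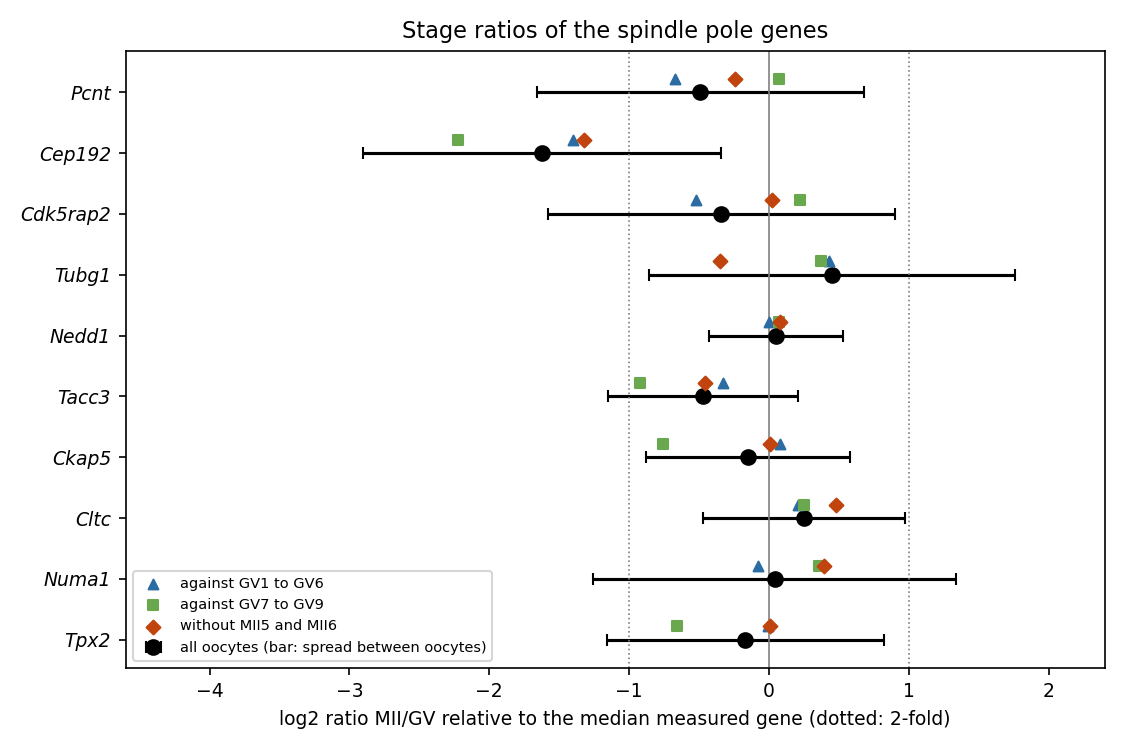
Log2 ratio MII/GV of each gene relative to the median measured gene. Black points use all oocytes with bars for the spread between oocytes, coloured marks use GV1 to GV6 alone, GV7 to GV9 alone, or leave out MII5 and MII6, and dotted lines mark 2-fold; Cep192 lies beyond 2-fold in all of them, at -1.62 with all oocytes.

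Among the scaffold proteins of the organising centre, Cep192 was lower in MII, and Pcnt and Cdk5rap2 stayed within their spread. CEP192 recruits and activates the kinases Aurora A and PLK1 at the organising centre. Cep192 was at 0 to 17.1 CPM in MII oocytes, with a median of 6.33, and at 21.4 to 71.9 CPM in GV oocytes, with a median of 47.2. The stages did not overlap in CPM. The lowest GV oocyte was GV4, and MII5 had no count of Cep192, which allows up to 1.82 CPM at its depth (3 counts). In the summed counts Cep192 had 65 counts in MII, 6.75 CPM (exact Poisson 95% interval 5.21 to 8.6), and 1813 counts in GV, 41.3 CPM (39.4 to 43.2). Its ratio was -1.62 ± 1.28, at percentile 8.61 of the measured genes. It was -1.32 without MII5 and MII6. It was -1.40 with GV1 to GV6 alone and -2.22 with GV7 to GV9 alone, and leaving out single oocytes gave -1.98 to -1.44. Relative to the median gene, MII2 (-0.15) and MII1 (-0.33) lay within the GV range of -0.55 to 1.42, so the stages overlapped on that scale by these oocytes.

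Pericentrin, encoded by Pcnt, is the large scaffold that holds the other proteins of the organising centre. Pcnt was at 45.6 to 375 CPM in MII oocytes (median 216) and 256 to 961 CPM in GV oocytes (median 309). The GV oocytes themselves differed: GV3, GV5 and GV6 had 961, 723 and 912 CPM, while the other 6 lay between 256 and 446 CPM. The stage ratio of -0.49 ± 1.17 was smaller than this spread, at -0.67 with GV1 to GV6 alone and 0.07 with GV7 to GV9 alone. Cdk5rap2 encodes a scaffold protein that binds pericentrin and the gamma-tubulin complex. It was at 6.39 to 77.1 CPM in MII (median 50) and 43.4 to 172 CPM in GV (median 88), with a ratio of -0.34 ± 1.24. MII5 and MII6 were far below the other MII oocytes, at 9.71 and 6.39 CPM against 42 to 77.1 CPM, and without them the ratio was 0.02.

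Gamma-tubulin, which nucleates microtubules, and its recruiter Nedd1 showed no ratio beyond their spread. Tubg1 was at 53.2 to 258 CPM in MII oocytes (median 119) and 122 to 459 CPM in GV oocytes (median 158). MII5 (258 CPM) and MII6 (158 CPM) were the highest of the MII oocytes, whereas in each other member they were the lowest pair in CPM, and the ratio of 0.45 ± 1.31 became -0.35 without them. It was also below 0 on the scale of total counts (-0.54). Among GV oocytes GV1 was highest, at 459 CPM, and GV1 also had the highest sum of cumulus and granulosa markers (336 CPM). The part of such cells in the Tubg1 level was not tested. Nedd1 had the smallest spread of the 10, at 11.5 to 30.9 CPM in MII (median 24.3) and 27.1 to 52.6 CPM in GV (median 40.2). Its ratio was 0.05 ± 0.48.

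The mouse has another gamma-tubulin gene, Tubg2, and its counts exceeded those of Tubg1. The pair was not compared per length. Tubg2 was at 330 CPM in MII (95% interval 319 to 342) and 474 CPM in GV (468 to 480) in the summed counts, with a ratio of 0.46 ± 1.25. Counts of Tubg1 were 0.261 to 0.898 times those of Tubg2 in MII oocytes and 0.221 to 0.8 times in GV oocytes, so the ranges of the pair's ratio overlapped. The coding sequences of both, of 1356 bases in GENCODE M21, are identical at 93.3% of bases, with 164 bases in the longest identical run. Reads within such runs cannot be assigned to either gene, and no source used here says how they were counted, so the split between both is uncertain. Bases 1159 to 1218 of the coding sequences, the stretch of 60 with most differences, are shown because they are where reads can separate the 2 mRNAs; the 15 bases that differ are in capitals. Both genes lie on chromosome 11, Tubg1 at chr11:101119938-101126419 on the plus strand of GRCm38.
Tubg1: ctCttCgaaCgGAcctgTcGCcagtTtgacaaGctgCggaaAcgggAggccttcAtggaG
Tubg2: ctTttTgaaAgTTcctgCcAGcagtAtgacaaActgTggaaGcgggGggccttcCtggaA

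TACC3, ch-TOG and clathrin form a complex that bridges and stabilises spindle microtubules, and in mammalian oocytes they also occur in a condensate around the poles. Of their genes Tacc3 had the most distinct stages. Tacc3 was at 56.4 to 315 CPM in MII oocytes (median 192) and 375 to 681 CPM in GV oocytes (median 484), with no overlap in CPM. Relative to the median gene the stages overlapped, and the ratio was -0.47 ± 0.68. Tacc3 shares 8.14% of its exon bases with Tmem129 on the opposite strand, and reads there cannot be told apart without a stated strand. The Tacc3 ratio was -0.92 with GV7 to GV9 alone and -0.33 with GV1 to GV6 alone. Ckap5, which encodes the microtubule polymerase ch-TOG, was at 43.7 to 163 CPM in MII (median 106) and 120.5 to 335 CPM in GV (median 212). The ratio was -0.15 ± 0.73, at 0.08 with GV1 to GV6 alone and -0.76 with GV7 to GV9 alone. Cltc, the clathrin heavy chain, was at 37.5 to 236 CPM in MII (median 196) and 193 to 305 CPM in GV (median 224). It varied least among GV oocytes in CPM, with a coefficient of variation of 15.9%, and MII1 to MII4 (195 to 236 CPM) lay inside the GV range. Its ratio was 0.25 ± 0.72.

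NuMA, which tethers microtubule minus ends at the poles with dynein, and TPX2, which activates Aurora A under control of the GTPase Ran, had ratios near 0. Numa1 was at 20.9 to 166 CPM in MII oocytes (median 132) and 61.6 to 321 CPM in GV oocytes (median 154), with a ratio of 0.04 ± 1.30. It was the most variable member among GV oocytes by range, 5.22-fold between GV3 and GV9. MII5 and MII6 had 24.3 and 20.9 CPM, against 129 to 166 CPM in the other 4, and without them the ratio was 0.39. Tpx2 was at 36.4 to 294 CPM in MII (median 241) and 269 to 729 CPM in GV (median 364), and its ratio was -0.17 ± 0.99. It was high in GV2 (729 CPM) and GV9 (668 CPM). Against GV7 to GV9 alone the ratio was -0.66, and against GV1 to GV6 -0.01.

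Relative levels in MII5 and MII6 differed with transcript length over all measured protein-coding genes. In these oocytes the median of 1126 measured protein-coding genes with a longest transcript over 7000 bases lay at -1.06 and -0.90 relative to the GV mean, in log2 relative levels. In MII1 to MII4 it lay between -0.05 and 0.26. Genes of up to 2000 bases (1599 genes) lay at 0.77 and 0.62 in MII5 and MII6, and at -0.35 to -0.07 in MII1 to MII4. GV4 showed the same pattern among GV oocytes, at -0.75 for the longest and 0.74 for the shortest class. Pcnt, Cep192, Cdk5rap2 and Numa1 belong to the longest class and Tubg1 is the one member in the shortest. Nedd1 and Tacc3 are in the class of 2000 to 4000 bases, which lay at 0.02 in MII5 and 0.23 in MII6. Ckap5, Cltc and Tpx2 are in that of 4000 to 7000 bases, at -0.62 and -0.35. Single members could differ from their class. The relative level of Tacc3 was 2.51 in MII5 and 4.03 in MII6, against a GV mean of 4.16. For the longest class the median stage ratio was -0.16, and 0.06 without MII5 and MII6. The part of transcript length in the single ratios was not tested.

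**Figure D3:**
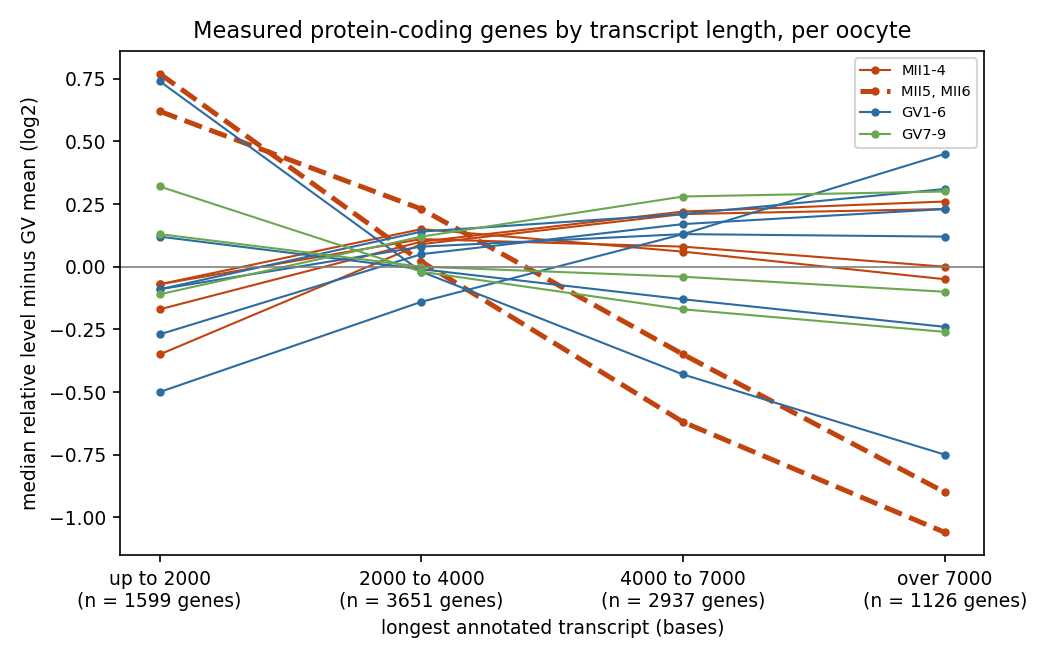
Median log2 relative level minus the GV mean of measured protein-coding genes in 4 classes of transcript length (horizontal axis, bases), a line per oocyte. MII5 and MII6 (dashed) run from 0.77 and 0.62 in the shortest class to -1.06 and -0.90 in the longest, and the other oocytes stay closer to 0 except GV4, at 0.74 and -0.75.

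Within the GV stage some members varied together over the 9 oocytes. Of 45 pairs 28 had a positive Spearman correlation of relative levels, and no such share over pairs of other genes is given here. The highest correlation was that of Ckap5 and Tpx2 (0.93), followed by Tacc3 and Ckap5 (0.87). These genes were low in GV1 and GV4 and high in GV7 and GV9, with Tpx2 highest in GV2. Pcnt varied with Cltc (0.85) and Numa1 (0.78), all highest in GV3 or GV6. Tubg1 ran against Nedd1 (-0.78), against Cdk5rap2 (-0.77) and against Pcnt (-0.75). Within GV1 to GV6 alone (n = 6) the values were 0.94 for Ckap5 and Tpx2, 0.71 for Tacc3 and Ckap5, 0.89 for Pcnt and Cltc and 0.94 for Pcnt and Numa1. Other pairs differed more between both sets of oocytes. Cdk5rap2 had 0.94 with Ckap5 in GV1 to GV6 and 0.00 over all 9, and Cep192 had 0.20 with Tacc3 in GV1 to GV6 and 0.73 over all 9. Pcnt had -0.49 with Tubg1 in GV1 to GV6, against -0.75 over all 9. The GV oocytes differ in depth and kind of file, and the correlations are descriptions. Bias by base composition also differed between them. Across 9313 measured protein-coding genes the deviation of relative levels from the GV mean had a Spearman correlation with GC content of -0.37 in GV2 to 0.42 in GV3. GC content was 55.3% in Pcnt, 55.9% in Numa1, 43.6% in Cltc, 43.9% in Ckap5, 47.8% in Tpx2, 52.7% in Tacc3 and 57.2% in Tubg1. With transcript length the same deviation had a correlation of -0.40 in GV4 to 0.28 in GV2. Tubg1 is in the shortest length class, Nedd1 in that of 2000 to 4000 bases, and Pcnt and Cdk5rap2 in the longest. The median of the shortest class was lowest in GV2 (-0.50) and highest in GV4 (0.74). The relative level of Tubg1 was 2.22 in GV2 and 2.98 in GV4. It was highest in GV1 (3.75), where that class lay at 0.12. The parts of base composition and of transcript length were not tested.

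**Figure D4:**
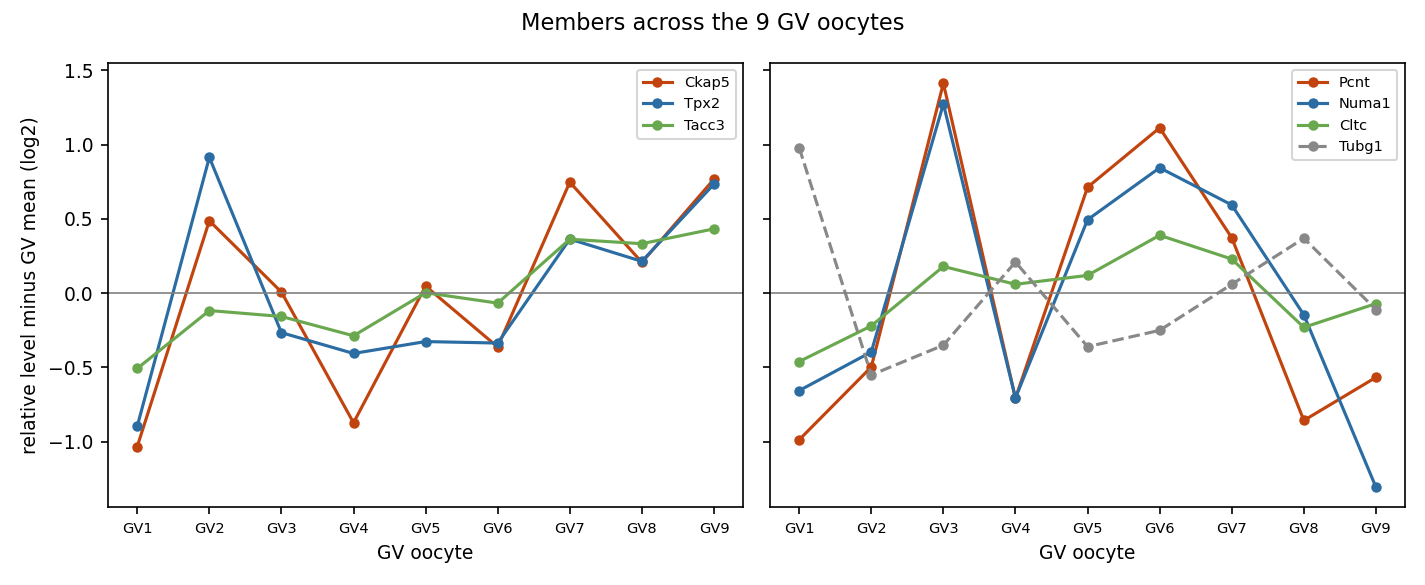
Log2 relative level minus its GV mean (vertical axis) in each of the 9 GV oocytes for Ckap5, Tpx2 and Tacc3 (left) and for Pcnt, Numa1, Cltc and Tubg1 (right). Ckap5 and Tpx2 move together (rho 0.93), Pcnt and Numa1 peak in GV3, and Tubg1 (dashed) is highest in GV1.

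Between the kinds of GV file the members differed less than 2-fold. In GV7 to GV9 relative to GV1 to GV6, log2 ratios relative to the median gene were 0.91 for Ckap5, 0.88 for Cep192, 0.72 for Tpx2 and 0.65 for Tacc3, and -0.68 for Pcnt and for Cdk5rap2. Tacc3, at 516 to 681 CPM in the GV7 to GV9 files and 375 to 512 CPM in those of GV1 to GV6, was the single member whose relative levels did not overlap between the sets, 1 of 10 beside 16.8% of measured genes. None of the 10 reached 2-fold, whereas 20.2% of measured genes were 2-fold or more lower in GV7 to GV9 and 18.1% higher. The stage values with each set were as follows. Against GV7 to GV9 alone Cep192, Tacc3, Ckap5 and Tpx2 were lower in every MII oocyte in relative levels, 4 of 10 members beside 12.0% of measured genes, and against GV1 to GV6 alone no member was, beside 1.19%. Cep192 was the single member at least 2-fold lower with either set, beside 20.7% of measured genes with GV7 to GV9 and 16.6% with GV1 to GV6, and no member was 2-fold higher, beside 20.6% and 12.3%.

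The ends of the annotated transcripts were searched for elements that control polyadenylation and translation of stored mRNAs in maturing oocytes. The cytoplasmic polyadenylation element, bound by CPEB proteins, was searched on the mRNA strand as TTTTAT or TTTTAAT in the last 120 bases of the 3' UTR of the principal transcript. The polyadenylation signal was searched as AATAAA or ATTAAA in the last 40 bases. All 10 members held a signal, and 3, Ckap5, Pcnt and Cltc, held an element at most 100 bases before it. Of 18965 protein-coding genes with a 3' UTR of that length, 73.7% held a signal and 13.4% an element so placed. The sites of the 3 members are shown with the element, and the signal where it falls in the window, in capitals, 5' to 3' from GENCODE M21 on GRCm38. The Ckap5 site is at chr2:91620629-91620658 on the plus strand, the Pcnt site at chr10:76351276-76351305 on the minus strand and the Cltc site at chr11:86694431-86694460 on the minus strand.
Ckap5: taagagacTTTTATaAATAAAgtttgcatt
Pcnt: ttctTTTTATtggcaaaacaAATAAAacta
Cltc: acgtttccagcaTTTTAATcaagtagcact
In Ckap5 the element starts 7 bases before the signal, in Pcnt 16 bases and in Cltc 75 bases, outside the window shown. The stage ratios of the 3 genes were -0.15 for Ckap5, -0.49 for Pcnt and 0.25 for Cltc, inside the range of the 7 members without such a match in this window (-1.62 to 0.45).

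The wider set of spindle pole and organising centre genes also had stage ratios near that of the median gene. Of 76 genes in 7 lists, 70 were measured, with a median ratio of -0.01 ± 0.41. Of these 61 lay within 2-fold, 3 were 2-fold or more lower (Haus3, Cep57 and Gpsm2) and 6 at least 2-fold higher (Cep120, Cetn3, Cltb, Mapre2, Rcc1 and Pafah1b1), beside 15.5% and 12.1% of all measured genes. Leaving out a single oocyte took 1 of the 3 and 5 of the 6 inside 2-fold. Cep57 was at -0.87 without GV4, Pafah1b1 at 0.93 and Mapre2 at 0.92 without MII5, Rcc1 at 0.67 without MII4, Cep120 at 0.94 without GV4 and Cetn3 at 0.22 without MII3. Haus3, Gpsm2 and Cltb stayed 2-fold or more apart whichever oocyte was left out. Of the 61 genes within 2-fold, 12 passed it without some oocyte. In the gamma-tubulin ring complex, the template for new microtubules, all 7 measured genes were within 2-fold, with a median of -0.46 ± 1.07, which was 0.58 with GV7 to GV9 alone. The lowest, Tubgcp4, had 23 counts in MII and 390 in GV (-0.88 ± 1.65). It was at -1.67 without MII6 and -1.42 without MII2, and Tubgcp3 (-0.49) was at -1.23 without MII4, so that the count within 2-fold rests on these oocytes. The highest and most abundant was Tubg2. The augmin complex, which branches new microtubules off existing ones, had a median of 0.18 ± 0.57 over 6 measured genes. Among its subunits Haus3 was at 3.64 to 50.7 CPM in MII (median 15.3) and 30.6 to 155 CPM in GV (median 91.7), a ratio of -1.29 ± 1.20. Haus4, with the most CPM summed over both stages, had a ratio of 0.88 ± 0.98. In GV it was below Haus3, at 55.7 against 77.1 CPM in the summed counts.

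Centriole and pericentriolar genes had a median of -0.04 ± 0.75 over 20 measured genes, and their transcripts were present although the oocyte has no centrioles. Nin, which encodes the minus-end anchor ninein, was the most abundant in CPM, at 394 CPM in MII (95% interval 381 to 407) and 933 CPM in GV (924 to 942), a ratio of -0.26 ± 1.14. Cep57 had the lowest ratio, -1.47 ± 1.32, with 19 counts in MII and 485 in GV. Cep120, a centriole elongation factor, had the highest, 1.03 ± 0.76, and stood at 0.05 on the scale of total counts. Among partners of TACC3, clathrin and microtubule plus ends the median of 12 genes was 0.24 ± 0.44. Cltb, a clathrin light chain, was at 682 to 2177 CPM in MII (median 1175) and 114 to 931 CPM in GV (median 326), a ratio of 2.68 ± 1.39 and the highest of the 70. It and Mapre2 (1.04 ± 0.46), a plus-end binding protein, were higher in every MII oocyte in relative levels, 2 of 70 genes beside 1.61% of measured genes. The lowest ratio of this list was that of Gtse1, a partner of clathrin on the spindle (-0.88 ± 0.84).

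**Figure D5:**
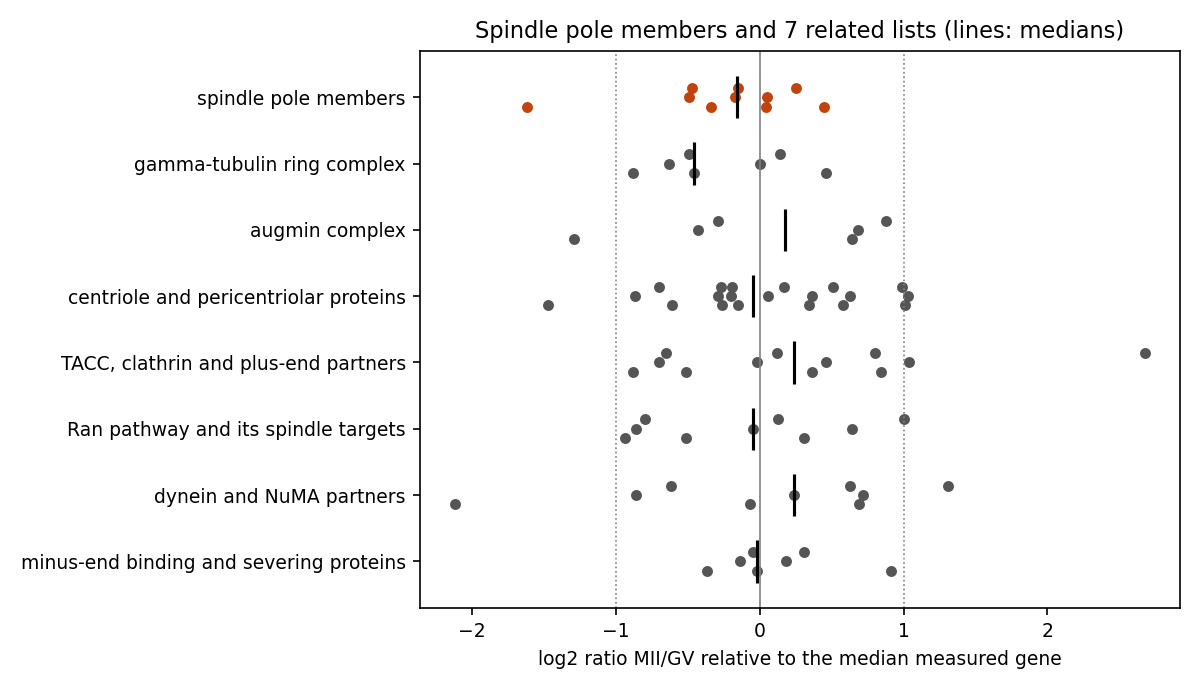
Log2 ratio MII/GV relative to the median measured gene for the 10 members (top) and the measured genes of 7 related lists. Points are genes, black lines list medians and dotted lines 2-fold; Cep192 is the leftmost member at -1.62 and Cltb the rightmost point at 2.68.

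The Ran pathway and its spindle targets had a median of -0.05 ± 0.55 over 9 genes. Kpna2, an importin that holds TPX2 inactive, had the most CPM summed over both stages. Its levels were 203 CPM in MII and 368 CPM in GV (0.13 ± 0.79), and in GV Nusap1 was above it (431 CPM). Rangap1, the GTPase-activating protein of Ran, was lowest (-0.94 ± 1.84, and 0.10 with GV7 to GV9 alone), and Rcc1, the nucleotide exchange factor of Ran, was highest (1.0 ± 1.11). Genes of dynein and NuMA partners had a median of 0.24 ± 0.69 over 9 genes. The lowest was Gpsm2, which links NuMA to the cortex, with 8 counts in MII and 332 in GV (-2.12 ± 1.36). The dynein regulator Pafah1b1 had the highest ratio (1.31 ± 1.21) and the most CPM summed over both stages. In GV it was below Dync1h1, at 73.7 against 93.4 CPM. Minus-end binding and severing proteins had a median of -0.02 ± 0.61 over 7 genes, all within 2-fold. Among them Camsap1 (-0.14 ± 1.22) was the most abundant, Katna1, a subunit of the severing enzyme katanin, the lowest (-0.37 ± 1.0) and Stmn1, which binds free tubulin, the highest (0.91 ± 1.12).

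The genes whose relative levels followed the median of the 10 members most closely over the 15 oocytes were Sema4d (Spearman 0.94), Osbpl10 (0.92), Lamc1 (0.88), Prdm2 (0.87) and Mvb12b (0.85). They were the top 5 of 4138 protein-coding genes with at least 20 CPM in each stage, of which the median correlation was 0.14. Their own stage ratios were -0.24 to 0.08. The 15 oocytes differ in stage, kind of file and depth, and the correlation is given as a description of these libraries.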

How the data were processed

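Each deposited file holds the authors' whole-number counts for the Ensembl gene IDs of a single oocyte. Per the submitters' processing notes cutadapt 4.0, STAR 2.7.10a and the build GRCm39 were used. The sources used here do not give the counting tool, its annotation, its use of strand or its treatment of shared reads. Reads of overlapping genes thus cannot be told apart, and in GENCODE M21, 6 members share 0.946% to 8.14% of their exon bases with another gene, most in Tacc3. Genes missing from a file counted as 0. Per the labels' protocols cDNA went through 28 PCR cycles and was fragmented to 300 bp. Reads are thus not independent molecules, and intervals and floors cover only counting error.

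The titles gave each oocyte's stage. The members and lists were chosen with earlier results of these data known. Symbols came from GENCODE M21 (GRCm38), which named 28402 of 28785 gene IDs (98.7%). For each stage the counts of its oocytes were added up with 0.5, and log2 MII/GV was set relative to the median of genes that reached 5 CPM in the higher stage. Per oocyte, log2(CPM + 1) minus that of the median measured gene gave relative levels. No pair of 51 within a stage agreed within sampling noise (lowest chi-square per degree of freedom 7.26). The script was tested on simulated data. All members are named. Of each related list, the gene with the most CPM summed over both stages and both extremes of the ratio are named. The 5 genes most like the members' median are named too. Other genes were named after their values were seen. TMM factors (edgeR 4.0.16) and median-of-ratios factors (DESeq2 1.42.0) of the summed counts, other filters, thinning to 808641 counts and left-out oocytes were alternatives. Python 3.11.15, pandas 2.3.3, numpy 2.4.6, scipy 1.17.1, matplotlib 3.10.9 and R 4.3.3 were used.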

Additional observations from a re-analysis of the deposited data

Results flagged for a closer look

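In 54 groups of oocytes, the 2 stages of 27 named genes, 4 held an oocyte whose relative level was far from the others by Dixon's criterion, which chance meets in about 1 in 20 groups. Tpx2 was at 1.89 in MII5 (60 counts), against 3.56 to 4.01 in the other MII oocytes. Cltc was at 1.89 in MII6 (88 counts), against 3.10 to 3.76. Tpx2 in MII6 (3.56) and Cltc in MII5 (3.10) lay with the other MII oocytes. Katna1 was at -1.71 in MII3 (7 counts), against -0.21 to 0.34 in the other MII oocytes. Gpsm2 was at -4.57 in GV4 (2 counts), against -2.16 to -0.98 in the other GV oocytes.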

How the results depend on the processing

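The median ratio of the 10 members was -1.14 on the scale of total counts, on which 6 of them were at least 2-fold lower and that of the 70 related genes was -0.99. Under the other alternatives it ran from -0.47 (totals without the unnamed feature) to 0.11 (medians of CPM over oocytes), so it has no fixed sign, and it was 0.01 without MII5 and MII6. Leaving out single oocytes gave -0.26 to -0.07 for the members and -0.08 to 0.11 for the related genes, with 1 member at least 2-fold lower and 0 higher each time. Cep192 was the member at least 2-fold lower under each alternative run, from -2.60 on total counts to -1.32 without MII5 and MII6. Members lower in every MII oocyte numbered 2 in CPM and 4 in relative levels against GV7 to GV9, against 0 in relative levels with all GV oocytes. The ratio of Tubg1 was 0.08 without MII5, and that of Numa1 was -0.23 without MII4 and 0.29 without GV3. No paired analysis was possible because the labels name no mouse and the oocyte numbers mark no shared mouse. Among the 10 members Cep192 had the fewest MII counts, 0 to 26 per oocyte, and of the related genes Gpsm2 had 8 MII counts in all, Cep57 19 and Tubgcp4 23.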

Other observations

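The clathrin chains differed in their balance between the stages, a comparison chosen after the values were seen. Within each library, which removes the scaling, counts of the light chain gene Cltb were 3.5 to 38.1 times those of the heavy chain gene Cltc in MII oocytes (median 5.44) and 0.571 to 3.17 times in GV oocytes (median 1.44), with no overlap. The other light chain gene, Clta, was at 0.123 to 3 times Cltc in MII and 0.154 to 0.906 times in GV. Of the gene pairs compared in this way, Cltb and Cltc alone had no overlap between the stages. No such share over other pairs of genes is given here. The highest ratio of Cltb to Cltc was in MII6. MII5 had the highest level of Cltb (2177 CPM), beside 85.6 CPM of Cltc. Both oocytes were low in long transcripts, and the part of length was not tested.

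Transcripts of centriole duplication factors, also named after their values were seen, were present in both stages. Plk4, the kinase that starts duplication, had 129 CPM in MII and 129 CPM in GV (0.99 ± 1.43 relative to the median gene), while Sass6, the cartwheel protein, was under the minimum for a measured gene, with 26 counts in MII and 190 in GV.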
